A study of Drosophila melanogaster with 6 samples.

Results

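The nicotinic acetylcholine receptors of the fly brain were examined through the 10 genes that encode their subunits, nAChRalpha1 to nAChRalpha7 and nAChRbeta1 to nAChRbeta3. Every transcript of these genes in the table was taken, which gave 28 transcripts of 10 genes among 13453 annotated genes and 28071 transcripts in all. Poly-A selected RNA from pooled whole brains of males was sequenced in 6 libraries of 3 genotypes. The first genotype, SPG-GAL4/UAS-traF (labelled SPG-GAL4/UAS-TraF), carried a driver active in the subperineurial glia of the blood–brain barrier (BBB) and a transgene for the female form of Transformer, so that BBB cells of otherwise male flies were feminized. The 2 control genotypes were SPG-GAL4/+ (labelled +/SPG-GAL4), with no transgene, and UAS-traF/+ (labelled +/TraF), with no driver. All flies had a w1118 background, were males, were 4 to 5 days old and were dissected with the BBB attached, and each genotype had 2 libraries. Since whole brains were measured, a change in the cells that hold a transcript and a change in its level per cell cannot be told apart.

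Acetylcholine is the main excitatory transmitter of the insect central nervous system, and nicotinic receptors are the channels that carry its fast signal. A receptor is a ring of subunits around a pore that passes cations. Alpha subunits carry a pair of neighbouring cysteines at the binding site for acetylcholine, and beta subunits lack this pair. In Drosophila, nAChRalpha1 and nAChRbeta2 are targets of neonicotinoid insecticides, nAChRalpha6 is the target of spinosad, nAChRalpha7 acts in the giant fiber escape circuit and nAChRalpha4 is the redeye gene of sleep control. The transcripts of nAChRalpha6 and nAChRalpha4 are also known for exons that replace one another.

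The subunit genes lie on chromosome arms 3R, 2L, 3L and X of the BDGP6.54 assembly. On 3R, nAChRalpha1 (24393896 to 24457157, minus strand), nAChRalpha2 (24485428 to 24491147, plus strand) and nAChRbeta2 (24509228 to 24515106, minus strand) follow one another. On 2L lie nAChRbeta3 (545129 to 547096, plus strand), nAChRalpha6 (9793317 to 9886250, minus strand) and nAChRalpha5 (14040170 to 14094401, plus strand). On 3L lie nAChRbeta1 (4429349 to 4435993, plus strand) and nAChRalpha4 (23206669 to 23287448, plus strand), and on X lie nAChRalpha3 (8276200 to 8367169, minus strand) and nAChRalpha7 (19327075 to 19348447, minus strand). All 1532 exonic bases of nAChRbeta3 also lie in exons of Ets21C on the opposite strand, and 251 exonic bases of nAChRalpha3 lie in exons of CG1636 on the opposite strand. Strand is not stated for the counting, so reads of such partners cannot be told apart.

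The table held estimated counts, and Kallisto divides a read among all the transcripts it fits. Within their own gene, 6 of the 28 transcripts had neither an exonic base nor a splice junction that no other transcript in the table had. These were nAChRalpha4-RC, nAChRalpha5-RH, nAChRalpha5-RI, nAChRalpha6-RA, nAChRalpha7-RA and nAChRalpha7-RD. The counts of nAChRalpha5-RH and nAChRalpha5-RI were identical in every library, since their exons are identical. Another 3 transcripts were alone in their gene in the table, those of nAChRalpha1, nAChRalpha3 and nAChRbeta3. A further 5 annotated transcripts were absent from the table. Among them were nAChRalpha6-RB and nAChRalpha6-RH, which have the same last exon of 221 bases as nAChRalpha6-RA.

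The libraries held between 32839081 and 37608924 estimated counts, and the 10 subunit genes together between 78350 and 98696 of them. Replicates differed by more than sampling noise in each genotype, with a chi-square per degree of freedom of 18.0 in SPG-GAL4/UAS-traF, 62.6 in SPG-GAL4/+ and 21.97 in UAS-traF/+ brains. The largest of these came from SPG-GAL4/+ replicate 1, which stood apart from the other libraries. It was the lowest library for 42.3% of the tested genes, against 9.3% to 13.9% for the other 5 libraries, and its deviations ran weakly with transcript length (Pearson's r of 0.14 across transcripts with log2 length, against -0.10 to 0.04 in the others). Subunit fold changes that it moved more than 1.5 times over are also given without it. Gene sums of tra were 538.8 and 558.5 normalized counts in SPG-GAL4/UAS-traF brains, against 508.1 to 617.2 in the controls, so whole-brain tra did not separate the genotypes. Among the marker lists, 0 of 6 glial genes passed the test, and their summed level was 163606 and 167436 normalized counts in SPG-GAL4/UAS-traF brains, against 129634 to 156536 in the controls. Most of this sum was Gs2, at 118302.5 and 122255.5 in SPG-GAL4/UAS-traF brains, against 91866.4 to 111613.8 in the controls. Of the 6 genes, 4 had a log2 fold change above 0 and 2 below (repo -0.03, Gli -0.05). The summed level of 5 neuronal genes was 233210 to 245227 in SPG-GAL4/UAS-traF brains, against 211459 to 283982 in the controls. The part of these cell markers in the subunit values was not tested.

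Per transcript length, nAChRbeta1 was the most abundant subunit in each library and nAChRbeta3 the least. Levels per length are given as TPM, here the estimated count over the annotated length, scaled to the same total in each library. nAChRbeta1, the beta subunit named ARD, had 484.5 and 453.7 TPM in SPG-GAL4/UAS-traF brains, 766.3 and 494.4 TPM in SPG-GAL4/+ brains and 523.9 and 523.3 TPM in UAS-traF/+ brains. It made up 39.2% to 39.5% of the summed TPM of the 10 subunits in SPG-GAL4/UAS-traF brains, against 41.1% to 42.9% in the controls. The 7 alpha subunits together made up 46.8% to 47.3% of it in SPG-GAL4/UAS-traF brains, against 43.5% to 46.4% in the controls. nAChRbeta3, a diverged subunit, had 4.4 and 6.1 TPM in SPG-GAL4/UAS-traF brains, 4.1 and 10.5 TPM in SPG-GAL4/+ brains and 4.0 and 5.3 TPM in UAS-traF/+ brains.

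By mean TPM over the 6 libraries, the order was nAChRbeta1 (541.0), nAChRbeta2 (165.4), nAChRalpha7 (150.9), nAChRalpha4 (113.0), nAChRalpha2 (111.9), nAChRalpha5 (75.7), nAChRalpha6 (71.6), nAChRalpha1 (49.4), nAChRalpha3 (23.5) and nAChRbeta3 (5.7). The ranges of neighbours overlapped from nAChRbeta2 down to nAChRalpha1, and did not overlap between nAChRbeta1 and nAChRbeta2, between nAChRalpha1 and nAChRalpha3 or between nAChRalpha3 and nAChRbeta3. Within libraries, nAChRbeta2 was above nAChRalpha7 in 5 of 6 and nAChRalpha4 above nAChRalpha2 in 3 of 6, while each other neighbour in this order was above the next in 6 of 6. For nAChRalpha1 and nAChRalpha3 the TPM used the length of the only transcript in the table, 11027 and 10506 bases. Annotated transcripts of 3826 bases for nAChRalpha1 and 3908 bases for nAChRalpha3 were absent from it. The ranks and gaps of these genes hold only for the longer lengths.

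**Figure D1:**
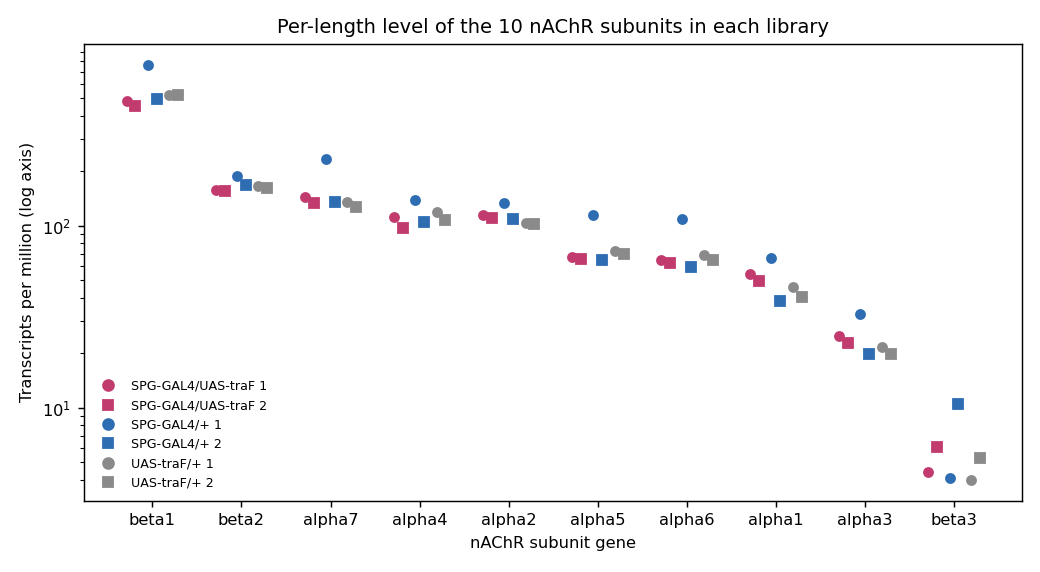
TPM (vertical log axis) of each subunit gene in the 6 libraries, ordered by mean level. Circles are replicate 1 and squares replicate 2 of each genotype. nAChRbeta1 lies between 453.7 and 766.3 TPM and nAChRbeta3 between 4.0 and 10.5 TPM, and SPG-GAL4/+ replicate 1 is the highest library for 9 of the 10 genes on this scale.

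To ask whether feminization of the BBB changed the amount of receptor transcript, counts were summed per gene and the SPG-GAL4/UAS-traF libraries were compared with the 4 control libraries by the quasi-likelihood test of edgeR, with an adjusted p below 0.1 as the threshold. None of the 10 subunit genes passed. The test called 0 of 9777 genes in all (0.0%), with 458 at an unadjusted p below 0.05, and DESeq2 called 24 genes (0.179%) and no subunit. Of the 10 subunits, 7 had a log2 fold change below 0 and 3 above 0, with a median of -0.18, beside a median of -0.01 over all genes tested, of which 46.4% were above 0. Without SPG-GAL4/+ replicate 1 the median of the 10 was -0.09, with 6 below and 4 above 0, and no subunit passed, while 240 genes passed in all (2.46%).

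Values are given as normalized counts, which are estimated counts divided by the scaled library size. nAChRbeta2 had 5371 and 5299 normalized counts in SPG-GAL4/UAS-traF brains, 6047 and 5764 in SPG-GAL4/+ brains and 5998 and 6075 in UAS-traF/+ brains. nAChRbeta1 had 18042 and 16978 normalized counts in SPG-GAL4/UAS-traF brains, 24603 and 18491 in SPG-GAL4/+ brains and 19917 and 20093 in UAS-traF/+ brains. For these 2 genes both SPG-GAL4/UAS-traF libraries lay below all 4 controls, which 14.1% of all tested genes showed in one direction or the other. Their log2 fold changes were -0.16 ± 0.08 (SE) for nAChRbeta2 and -0.25 ± 0.15 for nAChRbeta1, both with an edgeR adjusted p of 0.999. They were both -0.13 without SPG-GAL4/+ replicate 1.

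In the other 8 genes the SPG-GAL4/UAS-traF libraries overlapped the range of all 4 controls, though not always that of UAS-traF/+ alone. nAChRalpha5 had 9173 and 8880 normalized counts in SPG-GAL4/UAS-traF brains, 14278 and 8931 in SPG-GAL4/+ brains and 10648 and 10454 in UAS-traF/+ brains. nAChRalpha6 had 7699.8 and 7310.2 normalized counts in SPG-GAL4/UAS-traF brains, 11779 and 7118 in SPG-GAL4/+ brains and 8494 and 8219 in UAS-traF/+ brains. nAChRalpha1 had 9944 and 9151 normalized counts in SPG-GAL4/UAS-traF brains, 11094 and 7143 in SPG-GAL4/+ brains and 8836 and 7978 in UAS-traF/+ brains. In each of these 3 genes SPG-GAL4/+ replicate 1 was the highest library and SPG-GAL4/+ replicate 2 was among the lowest 2. The log2 fold changes against all controls were -0.30 ± 0.19 (SE) for nAChRalpha5, -0.25 ± 0.21 for nAChRalpha6 and 0.12 ± 0.19 for nAChRalpha1. They were -0.12, -0.06 and 0.28 in this order without SPG-GAL4/+ replicate 1. The remaining subunits had log2 fold changes of -0.21 (nAChRalpha4), -0.18 (nAChRbeta3), -0.17 (nAChRalpha7), 0.01 (nAChRalpha2) and 0.02 (nAChRalpha3). Without that library these were -0.15 (nAChRalpha4), -0.34 (nAChRbeta3), 0.035 (nAChRalpha7), 0.075 (nAChRalpha2) and 0.19 (nAChRalpha3), and the edgeR adjusted p of the 10 genes was between 0.142 and 0.739.

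The direction of most subunit genes against the driver control depended on which SPG-GAL4/+ library was kept. nAChRbeta1, nAChRbeta2 and nAChRalpha4 stayed below 0 with either one left out. SPG-GAL4/+ replicate 1 was the highest of the 6 libraries for 8 of the 10 subunit genes, beside 23.9% of all tested genes. With both libraries, the median log2 fold change of the 10 genes in SPG-GAL4/UAS-traF against SPG-GAL4/+ brains was -0.26, 9 of 10 were below 0 and none passed the test (0.0102% of all genes did). Without SPG-GAL4/+ replicate 2 the median was -0.37 and 9 of 10 were below 0. In that fit nAChRalpha5 had a log2 fold change of -0.71, nAChRalpha6 of -0.70, nAChRalpha7 of -0.65 and nAChRbeta1 of -0.54. nAChRbeta3 was the gene above 0, at 0.46.

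Without SPG-GAL4/+ replicate 1 the median was 0.06, with 6 genes above 0 and 4 below. nAChRbeta3 then had a log2 fold change of -0.97, and nAChRalpha1 was higher in SPG-GAL4/UAS-traF brains by 0.45 on the log2 scale. The same gene was lower by 0.27 on that scale when replicate 2 was left out instead (log2 fold change of -0.27). In both of these fits 1 library stood for its genotype and was assumed to vary like the others. Against UAS-traF/+ brains, 5 subunits were above 0 and 5 below, the median log2 fold change was -0.07 and none passed (0.102% of all genes did). In SPG-GAL4/+ against UAS-traF/+ brains, the 2 controls, the median was 0.17 with both driver libraries and -0.13 without SPG-GAL4/+ replicate 1, and no subunit passed in either fit (0.215% and 1.22% of all genes did). Without SPG-GAL4/+ replicate 2 it was 0.42, and 7 subunits passed (38.4% of all genes). These comparisons share libraries, so their values are not independent of one another.

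**Figure D2:**
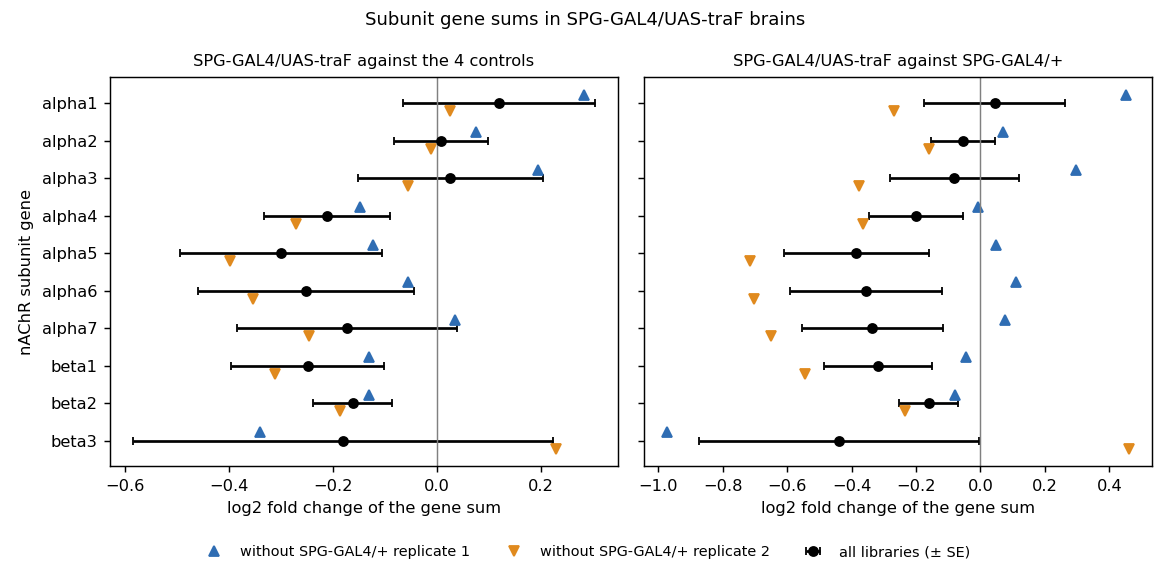
Log2 fold change (horizontal axis) of each subunit gene sum in SPG-GAL4/UAS-traF brains against the 4 controls (left) and against SPG-GAL4/+ (right). Black points are all libraries with the SE, blue triangles leave out SPG-GAL4/+ replicate 1 and orange triangles leave out SPG-GAL4/+ replicate 2. Against SPG-GAL4/+ the median of the 10 genes is 0.06 without replicate 1 and -0.37 without replicate 2.

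At the level of single transcripts, all 28 entered the test and none passed in edgeR, which called 3 of 21208 transcripts (0.0141%). An unadjusted p below 0.05 was found for 6 of the 28, beside 5.32% of all transcripts. Both SPG-GAL4/UAS-traF libraries lay below all 4 controls for 8 of the 28 and above them for 1, beside 8.38% and 6.5% of all transcripts. The 6 include nAChRalpha6-RA, counted in no control library, and nAChRalpha6-RE, which the study listed as changed on these same libraries. nAChRalpha6-RA is also the 1 above all controls. Transcripts of a gene share reads, so these counts are a description. The median log2 fold change of the 28 was -0.14 and 8 were above 0, beside -0.02 and 46.8% for all transcripts. Without SPG-GAL4/+ replicate 1 the median was -0.07 and 13 of the 28 were above 0. DESeq2, which called 280 transcripts (1.02%), called 2 of the 28, both of nAChRalpha6.

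nAChRalpha6 transcripts differ in 2 pairs of alternative exons. The first pair are 45-base exons, at 9825297 to 9825341 and, downstream in transcription, at 9819287 to 9819331 on 2L. The second pair are 87-base exons, at 9806444 to 9806530 and, downstream, at 9802351 to 9802437. nAChRalpha6-RA (FBtr0079915) has the upstream 45-base exon and the downstream 87-base exon, and ends in a last exon of 221 bases. nAChRalpha6-RE (FBtr0079912) has the upstream 45-base exon, both 87-base exons in tandem and a last exon of 3767 bases. nAChRalpha6-RC has the downstream exon of both pairs, nAChRalpha6-RD both 45-base exons with the downstream 87-base exon, and nAChRalpha6-RG the downstream 45-base exon with the upstream 87-base exon. The annotated coding length is 1482 bases in RA, RC and RG, 1527 in RD and 1569 in RE.

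**Figure D3:**
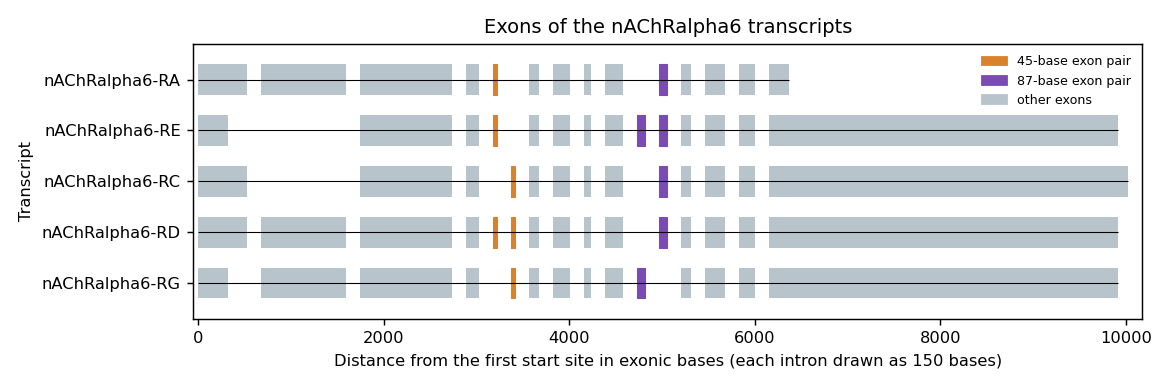
Exons of the 5 nAChRalpha6 transcripts in the table, in transcription order from left to right, with exonic bases to scale and each intron drawn at one fixed width. Orange and purple mark the 45-base and the 87-base alternative exons. nAChRalpha6-RA is the transcript with the short last exon, and nAChRalpha6-RE the one with both 87-base exons.

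nAChRalpha6-RA was counted in both SPG-GAL4/UAS-traF libraries and in no control library. Its estimated counts were 67 and 291 in SPG-GAL4/UAS-traF brains, and 0 in both SPG-GAL4/+ and both UAS-traF/+ libraries. The SPG-GAL4/UAS-traF libraries differed from each other more than 4 times over, at 64.2 and 283.6 normalized counts. By counting error alone, their mean of 173.9 was at least 53.2-fold higher than the control level that 3 counts in 1 library allow. On the same terms the lower library by itself was at least 19.6-fold higher. Of the nAChRalpha6 counts, RA took 0.834% (95% Wilson interval 0.657% to 1.06%) and 3.88% (3.47% to 4.34%) in SPG-GAL4/UAS-traF brains, while 0 counts in the controls allow a share of up to 0.0278% to 0.0404%. These intervals and fold values cover counting error only, and not the sharing of reads between transcripts, so they do not bound the true control level.

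Tests of nAChRalpha6-RA differed by tool and by the controls used. Against the pooled controls its level did not pass in edgeR (adjusted p = 0.618) and passed in DESeq2 (adjusted p = 2.83e-07). In DESeq2 it did not pass against SPG-GAL4/+ (adjusted p = 0.691) or against UAS-traF/+ (adjusted p = 0.465). Its usage, the change relative to the other transcripts of the gene by diffSpliceDGE of edgeR, had an adjusted p of 0.00927, below the threshold that 67 of 16591 transcripts passed (0.404%), and no other subunit transcript passed. With 0 counts in all 4 controls, RA entered these tests only through the SPG-GAL4/UAS-traF libraries in which it was counted, so its p-values are given as a description. With at least 10 counts required in every library it was not tested. The usage call was lost without SPG-GAL4/UAS-traF replicate 2 (adjusted p = 0.243) and with limma's diffSplice (adjusted p = 0.457), and over all alternatives the adjusted p ranged from 0.00436 to 0.457. In the usage tests against SPG-GAL4/+, against UAS-traF/+ and between the controls no subunit transcript passed, where 0.205%, 1.04% and 0.808% of all transcripts did. The study chose nAChRalpha6-RA and nAChRalpha6-RE as changed on these same libraries, so their values here are not independent evidence of a direction. The RA sequence has no exonic base and no splice junction that the other 4 transcripts lack, so its counts rest on how reads were shared out.

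nAChRalpha6-RE was lower in both SPG-GAL4/UAS-traF libraries than in all 4 controls, while the 2 control genotypes overlapped. It had 850.3 and 695.0 normalized counts in SPG-GAL4/UAS-traF brains, 1880 and 1206 in SPG-GAL4/+ brains and 1112 and 1419 in UAS-traF/+ brains. Its log2 fold change was -0.86 ± 0.24 (SE), with an edgeR adjusted p of 0.709 and a DESeq2 adjusted p of 0.0999, at the threshold. Against SPG-GAL4/+ it was -0.997 ± 0.26 (edgeR adjusted p = 0.792, DESeq2 adjusted p = 0.094, with 1.05% of all transcripts called by DESeq2). Against UAS-traF/+ it was -0.71 ± 0.26 and passed in neither tool (edgeR adjusted p = 0.605, DESeq2 adjusted p = 0.355). Leaving out 1 library in turn gave -1.28 to -0.63 against SPG-GAL4/+, the value nearest to 0 being without SPG-GAL4/+ replicate 1, and -0.99 to -0.68 against all controls. RA and RE together, the transcripts with the upstream 45-base exon alone, had 914.5 and 978.6 normalized counts in SPG-GAL4/UAS-traF brains, against 1112 to 1880 in the controls.

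**Figure D4:**
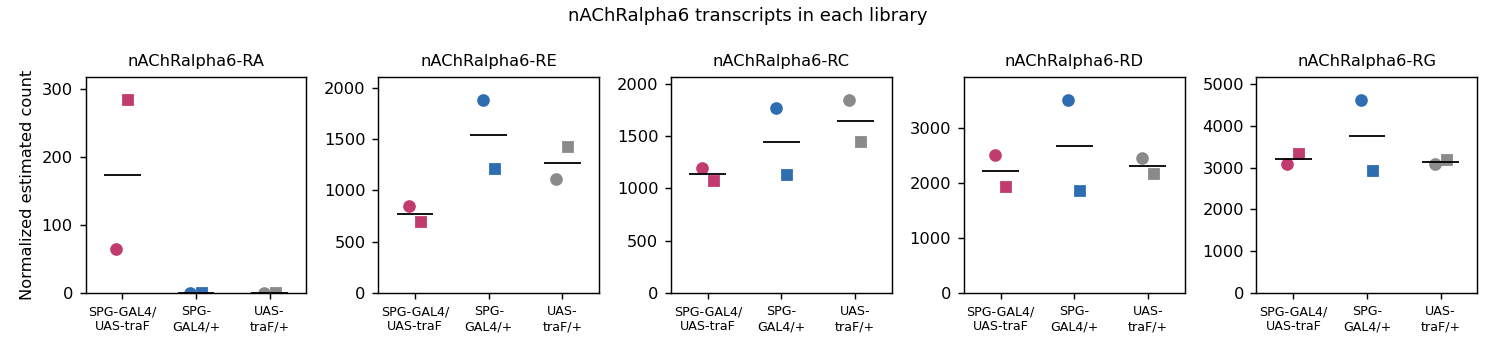
Normalized estimated counts (vertical axes from 0) of the 5 nAChRalpha6 transcripts in the 6 libraries. Circles are replicate 1, squares replicate 2 and lines the genotype means. RA is at 64.2 and 283.6 in SPG-GAL4/UAS-traF brains and at 0 in the controls, and RE is at 850.3 and 695.0 in SPG-GAL4/UAS-traF brains, against 1112 to 1880 in the controls.

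For the other nAChRalpha6 transcripts the SPG-GAL4/UAS-traF libraries overlapped the range of all controls. Against UAS-traF/+ alone, nAChRalpha6-RC did not overlap and was lower in both SPG-GAL4/UAS-traF libraries. How many of all transcripts did not overlap UAS-traF/+ is not given here, so this is a description. nAChRalpha6-RG, the most abundant, had 3081 and 3335 normalized counts in SPG-GAL4/UAS-traF brains, 4622 and 2924 in SPG-GAL4/+ brains and 3081 and 3192 in UAS-traF/+ brains, with a log2 fold change of -0.11 ± 0.20 (SE) that was 0.08 without SPG-GAL4/+ replicate 1. nAChRalpha6-RC had 1197 and 1068 in SPG-GAL4/UAS-traF brains, against 1130.1 to 1844 in the controls, and nAChRalpha6-RD 2507 and 1928 against 1858 to 3510. Both had log2 fold changes with an edgeR adjusted p of 0.973 or above.

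Exon choice was compared as shares of the counts of a gene, which do not depend on its total. With 2 libraries against 4, an exact permutation test cannot give a two-sided p below 0.133. Over 9 classes of transcripts compared, the lowest adjusted p was 0.4. Transcripts with both 87-base exons of nAChRalpha6, which is RE, took 11.04% and 9.51% in SPG-GAL4/UAS-traF brains, against 13.1% to 17.3% in the controls (exact permutation p = 0.133). Transcripts with the upstream 87-base exon alone, which is RG, took 40.01% and 45.6% in SPG-GAL4/UAS-traF brains, against 36.3% to 41.1% in the controls (exact permutation p = 0.267). The downstream 87-base exon alone took 48.9% and 44.9% in SPG-GAL4/UAS-traF brains, against 42.0% to 50.6% (exact permutation p = 0.667). For the 45-base pair, the upstream exon alone took 11.9% and 13.4% in SPG-GAL4/UAS-traF brains, against 13.1% to 17.3% in the controls (exact permutation p = 0.267), and the downstream exon alone 55.6% and 60.2%, against 54.2% to 58.0% (exact permutation p = 0.533). Counting error leaves each share within 1.13 percentage points (95% Wilson interval).

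nAChRalpha4 has a pair of 181-base alternative exons, at 23238837 to 23239017 and at 23247007 to 23247187 on 3L. Transcripts with the upstream exon (RC and RG) took 64.1% and 65.8% of the gene's counts in SPG-GAL4/UAS-traF brains, against 60.6% to 65.5% in the controls. Transcripts with the downstream exon (RH) took 20.1% and 19.2% in SPG-GAL4/UAS-traF brains, against 17.1% to 19.8%. The transcripts with neither exon (RD, RE and RF), whose annotated coding length of 1113 to 1152 bases is below the 1497 to 1617 bases of the others, took 15.8% and 14.97% in SPG-GAL4/UAS-traF brains, against 17.4% to 19.6% in the controls. That last share did not overlap (exact permutation p = 0.133, the smallest this design allows). Its main member, nAChRalpha4-RD, had 1297 and 961.0 normalized counts in SPG-GAL4/UAS-traF brains, 1848 and 1417 in SPG-GAL4/+ brains and 1927 and 1733 in UAS-traF/+ brains. Its log2 fold change was -0.62 ± 0.18 (SE, edgeR adjusted p = 0.718). nAChRalpha4-RG, a minor transcript, had a log2 fold change of 1.04 ± 0.68 but overlapped, with 169.7 and 127.7 normalized counts in SPG-GAL4/UAS-traF brains, against 19.8 to 137.2 in the controls. These transcripts of nAChRalpha4 were chosen after their values were seen, except RC, the most abundant, with 6068 and 5420.3 in SPG-GAL4/UAS-traF brains against 6045 to 7093 in the controls.

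nAChRalpha5-RB and nAChRalpha7-RA were lower in UAS-traF/+ brains than in both genotypes that carry SPG-GAL4. Each passed in DESeq2 in a comparison with UAS-traF/+, and their short 3′ ends were noticed after their values were seen. nAChRalpha5-RB, which ends upstream of the other nAChRalpha5 transcripts, had 307.7 and 310.0 normalized counts in SPG-GAL4/UAS-traF brains, 353.3 and 316.0 in SPG-GAL4/+ brains and 158.0 and 179.6 in UAS-traF/+ brains. Its log2 fold change was 0.87 ± 0.16 (SE) in SPG-GAL4/UAS-traF against UAS-traF/+ brains (edgeR adjusted p = 0.329, DESeq2 adjusted p = 0.0141) and 0.99 ± 0.16 in SPG-GAL4/+ against UAS-traF/+ brains (edgeR adjusted p = 0.337, DESeq2 adjusted p = 0.004). DESeq2 called 2.39% and 2.01% of all transcripts in these comparisons, and edgeR 0.0613% and 0.0377%. Both comparisons use the same UAS-traF/+ libraries. SPG-GAL4/UAS-traF against SPG-GAL4/+ gave -0.12 ± 0.16, and -0.021 without SPG-GAL4/+ replicate 1.

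nAChRalpha7-RA, whose last exon of 1167 bases is shorter than the 2646 bases of RD and RF, had 1520.4 and 1414 normalized counts in SPG-GAL4/UAS-traF brains, 2161 and 1519 in SPG-GAL4/+ brains and 957.5 and 945.7 in UAS-traF/+ brains. It took 12.1% and 12.0% of the nAChRalpha7 counts in SPG-GAL4/UAS-traF brains, 11.7% and 12.8% in SPG-GAL4/+ brains and 7.63% and 7.91% in UAS-traF/+ brains. Its log2 fold change was 0.63 ± 0.18 (SE) in SPG-GAL4/UAS-traF against UAS-traF/+ brains (DESeq2 adjusted p = 0.138) and 0.95 ± 0.18 in SPG-GAL4/+ against UAS-traF/+ brains (DESeq2 adjusted p = 0.00313), with edgeR adjusted p of 0.512 and 0.39. Against the pooled controls, which join both control genotypes, the log2 fold changes were 0.29 ± 0.36 for nAChRalpha5-RB and 0.07 ± 0.36 for nAChRalpha7-RA. Without SPG-GAL4/+ replicate 1 these were 0.52 and 0.38 (edgeR adjusted p = 0.602 and 0.597). In neither gene was the transcript the main one, which were nAChRalpha5-RD and nAChRalpha7-RD. A short 3′ end did not go with this pattern in each subunit transcript. nAChRalpha7-RE, which has the same 3′ end as RA, was lowest in SPG-GAL4/UAS-traF brains, and nAChRalpha6-RA was at 0 in both control genotypes. In nAChRalpha4 the transcripts with the shorter end (RE, RF and RG) together took 4.22% and 5.09% of the gene's counts in SPG-GAL4/UAS-traF brains, 2.89% and 3.06% in SPG-GAL4/+ brains and 3.35% and 1.88% in UAS-traF/+ brains.

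Several transcripts that keep introns or cover only part of a gene were among those with both SPG-GAL4/UAS-traF libraries below all controls. They were chosen after their values were seen. nAChRbeta2-RB, which keeps 2 introns that RA removes, had 805.3 and 716.4 normalized counts in SPG-GAL4/UAS-traF brains, 1325 and 927.0 in SPG-GAL4/+ brains and 1107 and 1285 in UAS-traF/+ brains. nAChRalpha7-RE, which also keeps 2 introns, had 205.1 and 230.0 in SPG-GAL4/UAS-traF brains, 548.5 and 360.1 in SPG-GAL4/+ brains and 399.2 and 318.5 in UAS-traF/+ brains. nAChRbeta1-RB, of 818 bases and an annotated coding length of 192, had 867.6 and 828.5 in SPG-GAL4/UAS-traF brains, 1919 and 936.6 in SPG-GAL4/+ brains and 1198 and 1380.4 in UAS-traF/+ brains. The log2 fold changes were -0.61 ± 0.17 (SE), -0.90 ± 0.25 and -0.68 ± 0.28 in this order, and the edgeR adjusted p was 0.709, 0.709 and 0.939. Leaving out SPG-GAL4/+ replicate 1 gave -0.53, -0.71 and -0.45. None of the 3 passed in DESeq2 (adjusted p = 0.156, 0.169 and 0.581). nAChRalpha2-RA and nAChRalpha7-RA, which each keep 1 intron, had log2 fold changes of 0.08 ± 0.11 and 0.07 ± 0.36, so a kept intron did not go with a lower value in each subunit.

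**Figure D5:**
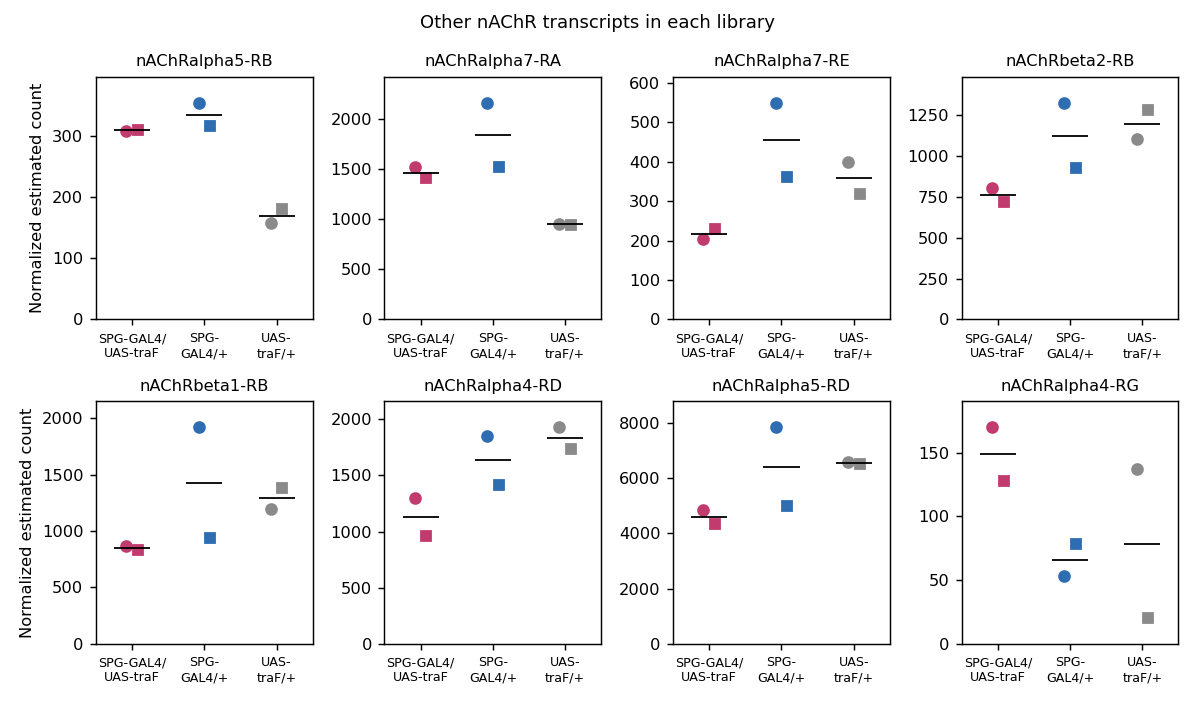
Normalized estimated counts (vertical axes from 0) of 8 subunit transcripts in the 6 libraries. Circles are replicate 1, squares replicate 2 and lines the genotype means. nAChRalpha5-RB and nAChRalpha7-RA are lowest in UAS-traF/+ brains, at 158.0 to 179.6 and 945.7 to 957.5, while nAChRalpha7-RE and nAChRbeta2-RB are lowest in SPG-GAL4/UAS-traF brains, at 205.1 to 230.0 and 716.4 to 805.3.

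The most abundant transcript of each subunit did not pass the test in any of the 10 genes. nAChRbeta1-RA had 17174 and 16150 normalized counts in SPG-GAL4/UAS-traF brains, against 17554 to 22684 in the controls (log2 fold change -0.22 ± 0.12, SE, and -0.12 without SPG-GAL4/+ replicate 1). nAChRbeta2-RA had 4566 and 4583 in SPG-GAL4/UAS-traF brains, against 4722 to 4890.3 in the controls (-0.07 ± 0.06). nAChRalpha5-RD had 4858 and 4338 in SPG-GAL4/UAS-traF brains, 7837 and 4995 in SPG-GAL4/+ brains and 6579 and 6517 in UAS-traF/+ brains (-0.49 ± 0.18). In these 3 both SPG-GAL4/UAS-traF libraries were below all controls, and the edgeR adjusted p was between 0.904 and 0.999. For nAChRalpha7-RD, nAChRalpha2-RA, nAChRalpha1-RC, nAChRalpha3-RC and nAChRbeta3-RA the SPG-GAL4/UAS-traF libraries overlapped the range of all controls. Against UAS-traF/+ alone, nAChRalpha2-RA, nAChRalpha1-RC and nAChRalpha3-RC did not overlap and were higher in both SPG-GAL4/UAS-traF libraries. The share of all transcripts that did not overlap UAS-traF/+ is not given here, so this is a description. The log2 fold changes against all controls were -0.17 (nAChRalpha7-RD), 0.08 (nAChRalpha2-RA), 0.12 (nAChRalpha1-RC), 0.03 (nAChRalpha3-RC) and -0.19 (nAChRbeta3-RA). Leaving out SPG-GAL4/+ replicate 1, these were 0.014, 0.16, 0.27, 0.18 and -0.35.

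Genes that make, release, break down or respond to acetylcholine beside the nicotinic receptors formed a list of 13 genes, of which 12 were tested and none passed in SPG-GAL4/UAS-traF against pooled controls. Of the 12, 8 were above 0 and 4 below, with a median log2 fold change of 0.03, and of 0.10 without SPG-GAL4/+ replicate 1. ChAT, the enzyme that makes acetylcholine, had 13864 and 13002 normalized counts in SPG-GAL4/UAS-traF brains, 14092 and 10969 in SPG-GAL4/+ brains and 11216 and 10471 in UAS-traF/+ brains. Its log2 fold change was 0.20 ± 0.15 (SE), and 0.33 without SPG-GAL4/+ replicate 1, where it passed (edgeR adjusted p = 0.0972, with 2.46% of all genes passing). VAChT, which loads acetylcholine into vesicles, had a log2 fold change of 0.21 ± 0.17, and Ace, which breaks it down, of 0.05 ± 0.17. mAChR-A, a muscarinic receptor, had 0.03 ± 0.15. These 3 were at 0.35, 0.19 and 0.16 without SPG-GAL4/+ replicate 1 and did not pass. qvr, a membrane-anchored protein that acts on Shaker and on nicotinic receptors, had the lowest value of the list, at -0.32 ± 0.15 (edgeR adjusted p = 0.999), and -0.20 without SPG-GAL4/+ replicate 1 (edgeR adjusted p = 0.135). Its 27745 and 27250 normalized counts in SPG-GAL4/UAS-traF brains lay below the 31067 to 40978 of the controls.

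The genes whose sums ran most like the sum of the 10 subunits over the 6 libraries, among 7954 genes with a mean of at least 100 counts, were Ip6k, GluClalpha and l(1)G0196, with a Pearson's r of 0.999, 0.997 and 0.996. All 3 were highest in SPG-GAL4/+ replicate 1, as the sum of the subunits was, at 76367 to 81467 normalized counts in SPG-GAL4/UAS-traF brains, 107616 and 76687 in SPG-GAL4/+ brains and 85731 and 83268 in UAS-traF/+ brains. The likeness is a description over 6 libraries that rests mainly on 1 of them.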

How the data were processed

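The 6 libraries came from pooled whole male brains, with 2 libraries for each genotype. The authors quantified paired-end reads with Kallisto, and each deposited value is an estimated count of 1 transcript, rounded to a whole number and not normalized. The Kallisto version and the reference release are not given in the sources used here. All 6 columns of values were used.

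Transcripts and gene sums were tested with edgeR 4.0.16 in R 4.3.3, by its quasi-likelihood method (default filter on low counts, TMM normalization, Benjamini-Hochberg adjustment over all features, adjusted p below 0.1), and usage with diffSpliceDGE. A single fit of the 3 genotypes gave the separate comparisons. The SE is the log2 fold change over the root of the F statistic, and is approximate. Exact permutation tests and Wilson intervals used scipy 1.17.1. Names, lengths and coordinates come from Ensembl release 115 of BDGP6.54. Replicates were separate pools of brains, and in the separate comparisons p-values measure the spread between these pools. Where the controls were joined into a single group, that spread also holds the difference between the control genotypes. For nAChRalpha5-RB the SE was 0.36 against the joined controls and 0.16 against UAS-traF/+ alone.

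The subunits, the lists and the tests were chosen with earlier results of these data known. Named were all 10 genes, the 2 nAChRalpha6 transcripts of the study's list, the most abundant transcript of each gene, those past the threshold in any comparison by edgeR, usage or DESeq2, and those with both SPG-GAL4/UAS-traF libraries outside the controls and a log2 fold change of at least 1. Alternatives were DESeq2 1.42.0, limma 3.58.1, other size factors, filters and thresholds, the replicate block and each library left out in turn. Summing transcripts with identical exons was added after seeing the data. Tests were tested on simulated data, where the usage test made more false calls than its threshold allows.

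The main fits did not pair libraries by replicate number, although the paper states that all genotypes were dissected in each sitting. The correlations of deviations between same-numbered libraries were 0.002, -0.02 and 0.04. Such values show no shared deviation over all transcripts and do not show that the design was unpaired.

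Sums of retina, fat body, muscle, hemocyte and testis markers were also computed. None of their tested genes passed, and the median log2 fold changes were -0.26 for 6 retina genes, -0.03 for 7 fat body genes, 0.19 for 4 muscle genes and 0.15 for 3 hemocyte genes, and -1.50 for the 1 testis gene tested. In neurons (5 genes) and glia (6 genes) the medians were -0.02 and 0.08.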

Additional observations from a re-analysis of the deposited data

Results flagged for a closer look

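In 3 values, 1 control library lay far from the other 3 controls, and in each it was SPG-GAL4/+ replicate 1. The gene sum of nAChRalpha7 was 18473 normalized counts there, with 11857 to 12543 in the other 3. The gene sum of nAChRalpha2 was 4776 normalized counts, with 4244 to 4318 in the other 3. The transcript nAChRalpha6-RG had 4622 normalized counts there, with 2924 to 3192 in the other 3. Chance marks about 1 in 20 such groups of 4 libraries, and 28 were examined.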

How the results depend on the processing

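Of the counts of subunits that passed, most were the same under the alternatives run, and the counts over all features moved more. DESeq2 gave 280 transcripts in SPG-GAL4/UAS-traF against pooled controls (2 of subunits), 289 against SPG-GAL4/+ (1), 656 against UAS-traF/+ (1) and 552 between the controls (2), and 24 genes against pooled controls. In SPG-GAL4/UAS-traF against SPG-GAL4/+, 1 transcript passed with median-of-ratios size factors, with no filter and with identical transcripts summed, and 3 with at least 10 counts in every library. Against UAS-traF/+ the 13 transcripts became 7 at an adjusted p below 0.05 and with at least 10 counts, 5 with limma-voom and 8 in a fit of the 2 genotypes alone, where 2 subunits also passed as gene sums (nAChRalpha5 and nAChRbeta2) and 2 in usage (nAChRalpha6-RA and nAChRalpha7-RA). Between the controls the 8 transcripts became 1, 3, 3 and 1 under the same changes. The shares of all genes and usage transcripts passing in the fit of SPG-GAL4/UAS-traF and UAS-traF/+ alone are not given here, so its subunit calls are a description. In 1 fit with 3 genotypes, pooled controls gave 11 transcripts, 2 genes and 130 usage calls, and with at least 10 counts 17 usage calls, where nAChRalpha6-RA was not tested, so that 0 subunits passed, as with limma's diffSplice. The cause of these differences was not tested. The replicate block changed no count of subunits that passed, gave 2 transcripts in all against UAS-traF/+ and 0 between the controls, and kept the nAChRalpha6-RA usage call as the 1 subunit call.

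Leaving out 1 library in turn gave 0 to 4 transcripts against pooled controls, 0 to 34 against UAS-traF/+ and 0 to 511 between the controls (0 to 5 of subunits, all 5 without SPG-GAL4/+ replicate 2), 0 to 240 genes (the most without SPG-GAL4/+ replicate 1) and 62 to 142 usage calls (0 to 1 of subunits). With 1 library left out, subunit genes passed against SPG-GAL4/+ or between the controls only where 1 SPG-GAL4/+ library was left. The same held for subunit transcripts in usage against UAS-traF/+. In those fits 1 library stood for its genotype, so the calls are a description. The median of the 10 genes ranged from -0.37 to 0.059 against SPG-GAL4/+ and from -0.13 to 0.42 between the controls. Values that crossed 0 and did not pass were, as log2 fold changes against pooled controls, nAChRalpha2 (-0.014 to 0.075), nAChRalpha3 (-0.055 to 0.19), nAChRalpha7 (-0.25 to 0.035) and nAChRbeta3 (-0.43 to 0.23) as gene sums. Among transcripts these were nAChRalpha3-RC (-0.041 to 0.18), nAChRalpha6-RG (-0.18 to 0.08), nAChRalpha7-RA (-0.075 to 0.38), nAChRalpha7-RD (-0.26 to 0.014) and nAChRbeta3-RA (-0.44 to 0.23). The fitted log2 fold change of nAChRalpha6-RA ranged from 9.01 to 11.15, which depends on the prior count since its controls were at 0. Shares per kb in place of counts kept the direction of each class share. Library-size scaling in place of TPM kept the direction of each subunit but nAChRalpha2, whose ratio of SPG-GAL4/UAS-traF to control means was 1.002 by TPM and 0.987 by library size. With 2 libraries per genotype, spread between libraries and not depth limited most of these values.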
